A study of Mus musculus with 15 samples.

Results

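The metalloproteinases of the ADAM, ADAMTS and MMP families and their inhibitors, the TIMPs, were followed over 5 populations of mononuclear phagocytes from the small intestinal lamina propria (LP) of the mouse. Members were taken by name: every gene of the array annotation whose symbol is Adam, Adamts, Mmp or Timp followed by a number and at most 1 letter. This gave 78 of 19938 genes, with 34 ADAM, 18 ADAMTS, 22 MMP and 4 TIMP genes. Each gene was read from 1 probeset of its own, the one with the highest mean where there were several, as for *Adamts3*, *Adamts9* and *Adamts17*.

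RNA was measured on 15 arrays, 3 for each population, and all cells came from the small intestine of wild-type mice in the steady state. The 4 dendritic cell (DC) subsets were CD64-. Of the CD103+ cells, 1 subset was CD11b+ and 1 CD11b-, and the CD103- cells were divided in the same manner. The fifth population held CD64+ macrophages, sorted as CD45+Ly6C-MHCII+CD64+CD11b+ cells. The study calls the replicates biological. The labels give neither strain, age nor sex, and they do not say how many mice stood behind an array, so the p-values below measure only the spread between these samples, which may be technical in part. Every population passed through collagenase digestion of the tissue before sorting.

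MMPs are secreted or membrane-bound zinc enzymes that cut collagens, gelatin, elastin and other matrix proteins, and many of them also trim cytokines and their receptors. ADAMs are membrane proteins that shed the outer parts of other membrane proteins, such as TNF, Notch and growth factor ligands, whereas ADAMTS enzymes are secreted and process proteoglycans and procollagen. TIMPs block the active site of most of these enzymes. In the gut wall, macrophages and stromal cells are well known sources of MMPs.

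Values are log2 signals, so that a difference of 1 is a doubling of the signal, and the level of one gene cannot be set against that of another because each probeset has its own response. Called genes had a Benjamini-Hochberg adjusted p under 0.01, over all 19938 genes, and a log2 difference over 1, both in limma's moderated tests. In sorted bulk samples, fewer cells that carry a transcript and less transcript per cell cannot be told apart. The sorted cells bore the markers of their labels: macrophage markers averaged 10.65 to 10.8 on the macrophage arrays and 5.73 to 7.74 on the DC arrays, and pan-DC markers 7.66 to 7.69 and 9.5 to 9.84, respectively. RNA of other tissue cells was also present, as pancreatic acinar markers averaged 4.81 to 8.89 and epithelial markers 6.25 to 7.73 over the 15 arrays. Neutrophil and mast cell markers stayed between 3.72 and 4.07, and fibroblast and smooth muscle markers between 4.76 and 5.59.

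Most of the family was dim in these cells. Only 16 of the 78 genes (20.5%) exceeded a log2 signal of 6 on all 3 arrays of at least 1 population, against 39.7% of all genes. They were 8 ADAM genes (*Adam8*, *Adam9*, *Adam10*, *Adam15*, *Adam17*, *Adam19*, *Adam23* and *Adam33*), 1 ADAMTS gene (*Adamts17*) and 7 MMP genes (*Mmp2*, *Mmp7*, *Mmp9*, *Mmp12*, *Mmp13*, *Mmp14* and *Mmp25*). None of the 22 ADAM genes known mainly from the testis and epididymis reached it, and their population means spanned at most 0.42. None of the TIMP genes reached it in all 3 arrays of a population.

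The members that differed between populations were few, and some differed widely. By the F test over the 5 populations, 14 of 78 members (17.9%) were called, against 10.7% of all genes. By family these were 7 MMP, 6 ADAM and 1 TIMP gene and no ADAMTS gene. The range between the highest and the lowest population mean was 6.42 for *Mmp9*, 5.98 for *Mmp13*, 4.8 for *Mmp14*, 4.30 for *Adam8*, 3.36 for *Mmp2* and 3.05 for *Mmp12*. It was 2.14 for *Adam23* and 1.87 for *Timp2*, and between 1.06 and 1.37 for *Mmp25*, *Adam19*, *Adam22*, *Mmp23*, *Adam9* and *Adam15*. Over all 78 members the median range was 0.24, beside 0.28 over all genes, so that the spread of the family lay in a minority of its genes. *Timp2*, *Adam22* and *Mmp23* were called although none of them exceeded 6 on all 3 arrays of any population.

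**Figure D1:**
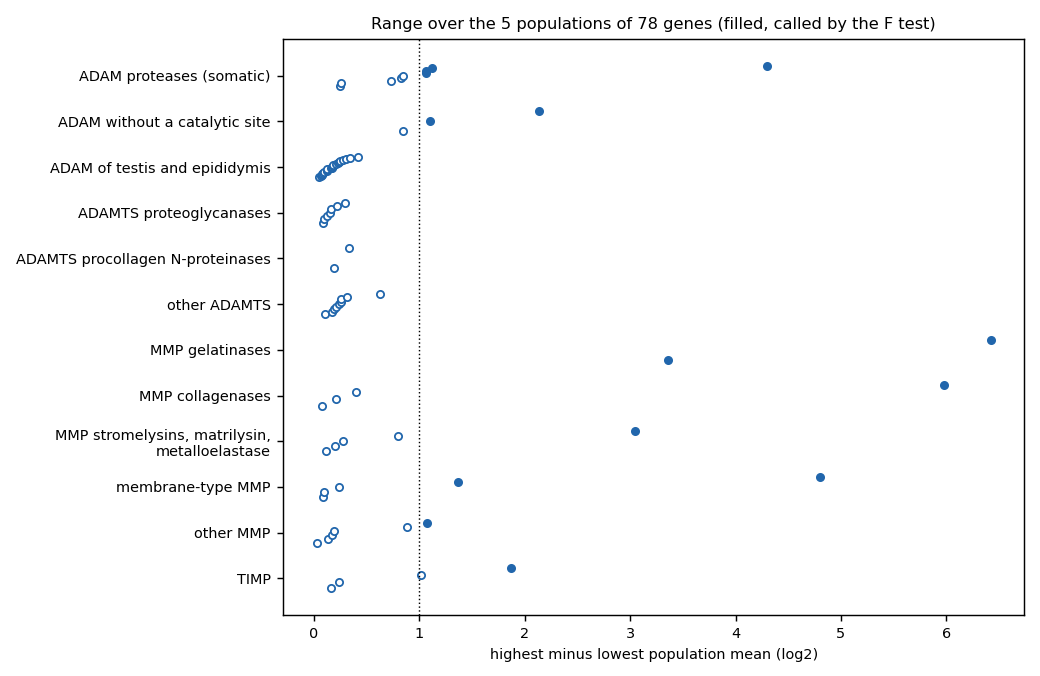
Each point is 1 of the 78 genes, placed by the difference between its highest and lowest population mean (log2) and grouped by role, with filled points for the 14 genes called by the F test and a dotted line at 1. The testis and epididymis ADAM genes and all ADAMTS genes lie under 1, while *Mmp9* and *Mmp13* lie near 6.

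The largest differences set the macrophages apart. Against the mean of the 4 DC subsets, 5 members were higher in macrophages and 2 were lower, together 7 of 78 (9.0%), while 5.57% of all genes were called in that comparison, 3.38% higher and 2.19% lower. The 5 that were higher are the gelatinases *Mmp9* and *Mmp2*, the collagenase *Mmp13*, the membrane-bound *Mmp14* and the inhibitor *Timp2*. Both members that were lower are ADAM genes, *Adam8* and *Adam23*. The median difference over all 78 members was 0.01, beside 0 over all genes.

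*Mmp9*, a secreted gelatinase that is stored by neutrophils and released by activated macrophages, had signals of 10.72, 9.78 and 10.82 on the macrophage arrays. On the 12 DC arrays it lay between 3.94 and 5.50, with a median of 4.47. No DC array came near the lowest macrophage array. Its difference was 5.81 ± 0.16 (SE; limma, adjusted p = 2.3e-12), a 56.2-fold higher signal. Among DCs, CD103-CD11b+ cells stood above all other subsets at 5.40, 5.37 and 5.50. The neutrophil genes *S100a8* and *Ly6g* were at 3.98 ± 0.20 and 3.18 ± 0.21 (SD, n = 3 arrays) in macrophages, against DC levels of 4.09 to 4.36 and 3.0 to 3.11. All 10 neutrophil and mast cell markers together averaged 3.72 to 3.88 on the macrophage arrays and 3.73 to 4.07 on the DC arrays. Their part in the *Mmp9* values was not tested.

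The collagenase gene *Mmp13*, whose product cuts fibrillar collagens, was high in macrophages and dim in every DC subset. Macrophages had 10.22, 9.81 and 10.05, and the DC arrays ranged from 3.97 to 4.89. The order of the 4 DC subsets from 4.63 ± 0.23 in CD103-CD11b+ to 4.05 ± 0.08 in CD103+CD11b- DCs had overlapping arrays at each step. The difference of macrophages from the DC mean was 5.73 ± 0.11 (limma, adjusted p = 8.3e-14), which is 53.2-fold. The remaining collagenase genes on the array, *Mmp8*, *Mmp1a* and *Mmp1b*, had population means that spanned 0.40, 0.21 and 0.08, and none of their arrays exceeded 3.88.

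*Mmp14* encodes a membrane-anchored MMP that degrades collagen at the cell surface and, together with TIMP2, activates the secreted form of MMP2. Macrophages had 10.00, 9.36 and 10.40. CD103-CD11b+ DCs came next with 6.42, 5.87 and 6.5 and did not overlap the other subsets, which lay between 4.76 and 5.67. The difference from the DC mean was 4.40 ± 0.19 (limma, adjusted p = 1.5e-10), or 21.1-fold.

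The genes of both partners in that activation step moved the same way. *Mmp2*, the second gelatinase, had 9.01, 8.44 and 8.87 in macrophages and 5.10 to 5.84 on the DC arrays. Its difference was 3.26 ± 0.14 (limma, adjusted p = 1.5e-10), and all neighbouring DC subsets overlapped. *Timp2* had 6.44, 5.65 and 6.33 in macrophages against 4.04 to 5.18 in DCs, a difference of 1.65 ± 0.17 (limma, adjusted p = 3.1e-06) or 3.1-fold. *Mmp2* is best known from fibroblasts, and the fibroblast and smooth muscle markers averaged 5.12 to 5.59 on the macrophage arrays and 4.76 to 5.58 on the DC arrays, with none of the 11 called. Of the 11, *Col1a1* and *Pdgfra* were at 5.73 ± 0.07 and 4.39 ± 0.20 in macrophages, against 5.60 to 5.76 and 4.21 to 4.35 over the DC subsets. The median difference of the 11 from the DC mean was 0.12, beside 0 over all genes. Their part in the *Mmp2* and *Timp2* values was not tested.

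*Adam8*, a leukocyte sheddase and adhesion protein, showed the reverse order. Macrophages were lowest with 5.53, 5.57 and 5.00. All 12 DC arrays were above them, from 7.59 to 9.78. The difference was -3.10 ± 0.12 (limma, adjusted p = 4.9e-11), or 8.6-fold lower in macrophages. *Adam23*, an ADAM without a catalytic site that takes part in cell adhesion, was also lowest there, at 5.92, 5.96 and 5.99 against 6.68 to 8.24 in DCs, with a difference of -1.54 ± 0.13 (limma, adjusted p = 3.8e-07).

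**Figure D2:**
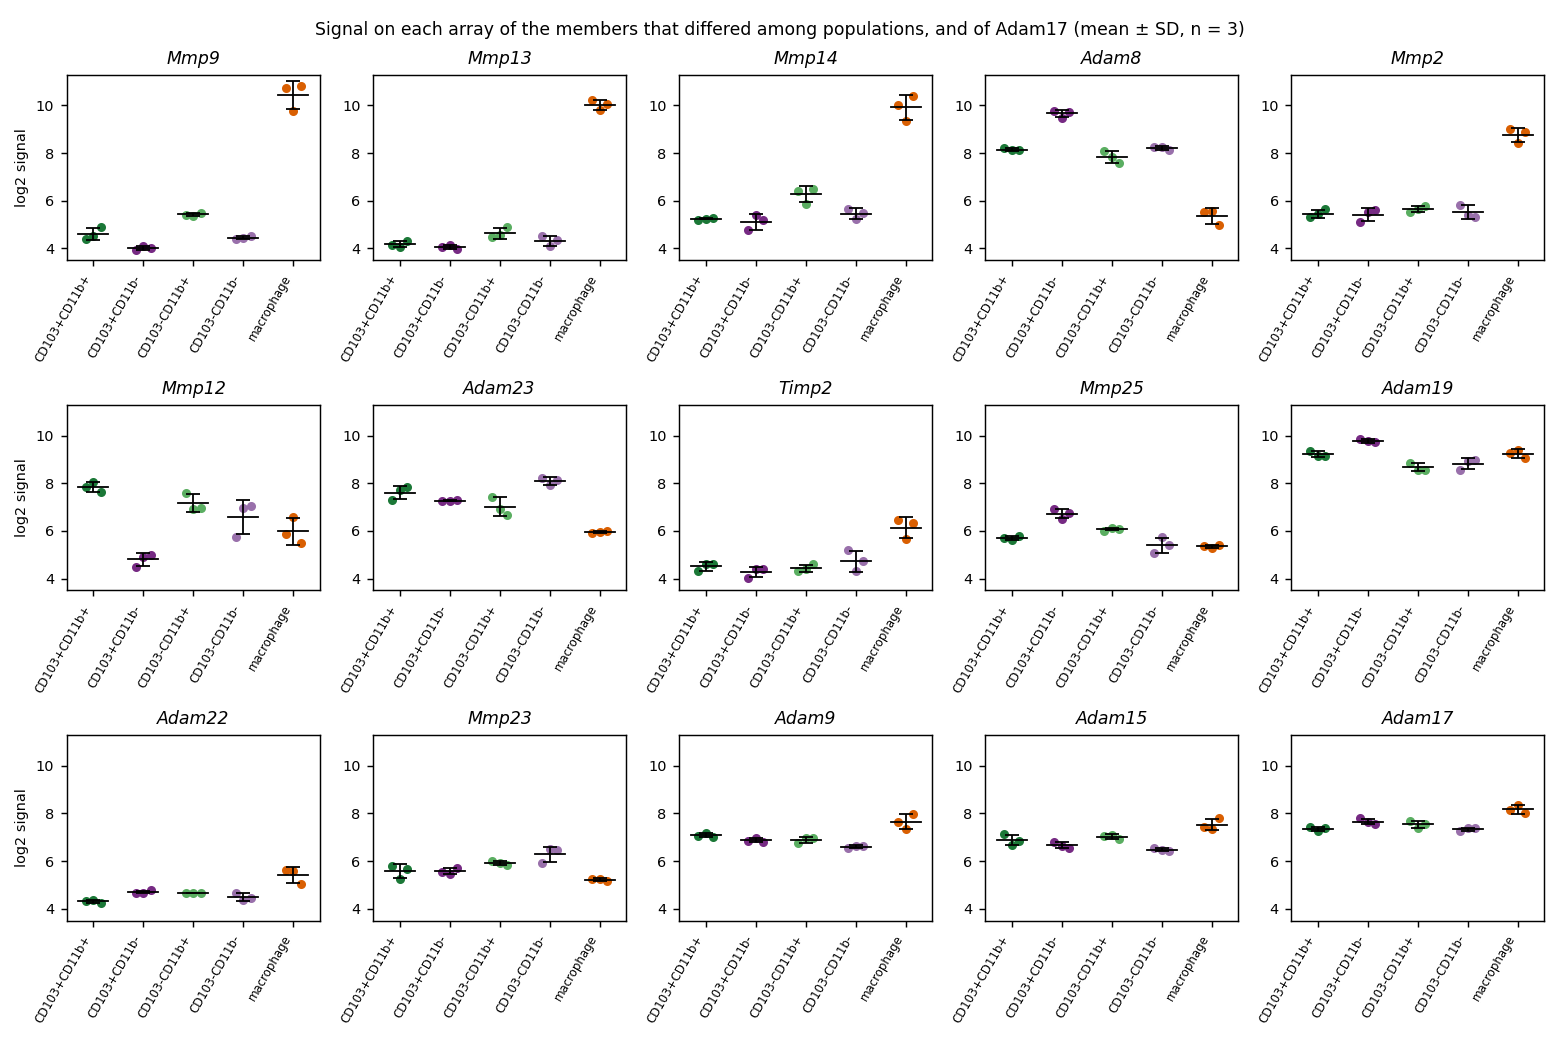
Log2 signal (vertical axis) on each of the 15 arrays, grouped by population along the horizontal axis, for the 14 members called by the F test and for *Adam17*; long bars are means and the capped lines are SD (n = 3). *Mmp9*, *Mmp13*, *Mmp14*, *Mmp2* and *Timp2* are highest in macrophages, *Adam8* and *Adam23* are lowest there, and *Mmp12* is lowest in CD103+CD11b- DCs.

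The main sheddases changed little in size between the cell types although their arrays separated. *Adam17*, which releases TNF and many receptors, had 8.15, 8.37 and 8.0 in macrophages and 7.25 to 7.79 in DCs. *Adam10*, which cuts Notch, CD23 and cadherins, had 8.0, 7.74 and 8.0 in macrophages and 7.04 to 7.69 in DCs. For both, every macrophage array exceeded every DC array. With differences of 0.70 ± 0.08 for *Adam17* (limma, adjusted p = 1.3e-05) and 0.46 ± 0.08 for *Adam10* (limma, adjusted p = 4.0e-04), neither gene reached the limit of 1.

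Other ADAM genes also differed by less than 1. *Adam9* differed by 0.79 ± 0.10, *Adam15* by 0.77 ± 0.10, *Adam33* by 0.76 ± 0.10 and *Adam22* by 0.88 ± 0.11, all higher in macrophages and all under 1. *Adam9* and *Adam15* were called by the F test through CD103-CD11b- DCs, their lowest population at 6.60 ± 0.06 and 6.47 ± 0.06, against 7.65 ± 0.32 and 7.53 ± 0.24 in macrophages. Without macrophage replicate 3 their ranges dropped to 0.90 and 0.92, and that of *Adam22* dropped to 0.99 without macrophage replicate 1. *Adam12* and *Adam28* stayed dim and flat, with ranges of 0.25 and 0.26.

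**Figure D3:**
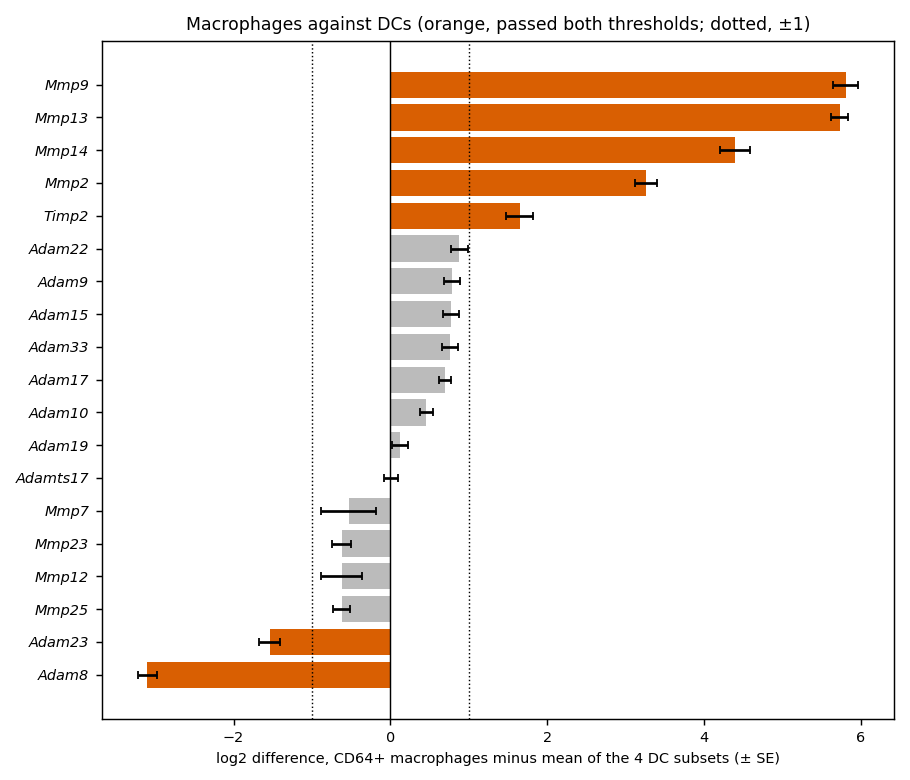
Log2 difference between macrophages and the mean of the 4 DC subsets (horizontal axis, bars with SE) for the 19 members that were called by the F test or exceeded a signal of 6. The 7 orange bars passed both limits, from 5.81 for *Mmp9* to -3.10 for *Adam8*, and *Adam10*, *Adam17*, *Adam33*, *Adam15*, *Adam9* and *Adam22* lie between 0.46 and 0.88.

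CD103-CD11b+ DCs share the most surface markers with macrophages, so macrophages were also compared with them alone. The same 7 members were called in the same directions (9.0%, against 5.18% of all genes, 3.02% higher and 2.16% lower). The differences were 5.39 ± 0.14 for *Mmp13*, 5.01 ± 0.21 for *Mmp9*, 3.65 ± 0.24 for *Mmp14*, 3.11 ± 0.17 for *Mmp2* and 1.71 ± 0.22 for *Timp2*. *Adam8* differed by -2.47 ± 0.15 and *Adam23* by -1.06 ± 0.17, and *Adam23* was at -0.84 without CD103-CD11b+ DC replicate 1 and at -1.0 with cyclic loess, where its call was lost. The study's methods name a *t*-test for 2 groups in general and no test for the arrays. By this methods' *t*-test neither *Timp2* (adjusted p = 0.0548) nor *Adam23* (adjusted p = 0.108) passed after adjustment, at a limit of 0.05. Under treat, limma's test against a difference of 1, *Timp2* (adjusted p = 0.121) and *Adam23* (adjusted p = 1.0) were not called, nor were they against the DC mean (adjusted p = 0.034 and 0.0206). Both comparisons share the macrophage arrays and 3 DC arrays.

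Within the DCs, *Mmp12*, *Mmp25* and *Adam19* were called beside *Adam8*, *Mmp9* and *Mmp14*. Between CD103+CD11b+ and CD103+CD11b- DCs, 3 of 78 members (3.8%) were called, beside 3.28% of all genes (1.95% higher and 1.32% lower). *Mmp12* was higher in CD103+CD11b+ DCs, and *Adam8* and *Mmp25* were lower. Between CD103-CD11b+ and CD103+CD11b- DCs, 5 members (6.4%) were called, beside 3.32% of all genes (2.02% higher and 1.3% lower), with *Mmp12*, *Mmp9* and *Mmp14* higher and *Adam8* and *Adam19* lower in CD103-CD11b+ DCs. These comparisons share the CD103+CD11b- DC arrays. Under treat, only *Mmp12* kept its call for CD103+CD11b+ DCs, and only *Mmp12* and *Adam8* kept theirs for CD103-CD11b+ DCs.

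*Mmp12*, the macrophage metalloelastase, was not highest in macrophages. CD103+CD11b+ DCs had the highest signals, at 7.84, 8.05 and 7.64, followed by CD103-CD11b+ DCs at 7.60, 6.91 and 6.98. Macrophages had 5.87, 6.59 and 5.48, and CD103+CD11b- DCs were lowest with 4.49, 4.91 and 4.99. The CD103-CD11b- DC arrays were spread, at 5.76, 6.96 and 7.03, and overlapped both CD103-CD11b+ DCs and macrophages. The lowest of them, replicate 1, had the most macrophage markers of its subset, at 7.21 against 6.15 and 6.31, and *C1qc* was at 9.57, 5.72 and 5.72, and the part of these markers in the *Mmp12* values was not tested. Against CD103+CD11b- DCs the difference was 3.05 ± 0.19 in CD103+CD11b+ cells (8.3-fold; limma, adjusted p = 1.1e-06). It was 2.37 ± 0.19 in CD103-CD11b+ cells (5.2-fold; limma, adjusted p = 7.4e-06). Macrophages differed from CD103-CD11b+ DCs by -1.18 ± 0.32 (limma, adjusted p = 0.018) and from the DC mean by -0.62 ± 0.26 (limma, adjusted p = 0.102), and neither was called.

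*Mmp9* and *Mmp14*, the genes that were far higher in macrophages, were also higher in CD103-CD11b+ than in CD103+CD11b- DCs, by 1.40 ± 0.12 (2.6-fold; limma, adjusted p = 1.4e-05) and 1.15 ± 0.18 (2.2-fold; limma, adjusted p = 0.00128). *Mmp13* was at 0.58 ± 0.12 and *Mmp2* at 0.25 ± 0.14 in the same comparison. Macrophage markers averaged 7.36 to 7.74 on the CD103-CD11b+ arrays, against 5.73 to 5.86 on those of CD103+CD11b- DCs, and 8 of the 14 measured were called higher. Of the defining ones, *Fcgr1*, which encodes CD64, was at 4.8 ± 0.22 and 3.83 ± 0.13, and *Mertk* at 4.21 ± 0.17 and 3.96 ± 0.09. The complement genes *C1qa*, at 8.87 ± 0.19 and 5.60 ± 0.38, *C1qb*, at 8.96 ± 0.24 and 4.97 ± 0.34, and *C1qc*, at 9.30 ± 0.47 and 5.69 ± 0.31, differed more, as did *Apoe* at 10.44 ± 0.17 and 7.93 ± 0.27. Their part in the result was not tested. Without CD103+CD11b- DC replicate 1, the difference of *Mmp14* was 0.97 and the call was lost. It was also lost without the array of each population with the highest pancreatic acinar markers, at 1.17 (limma, adjusted p = 0.0124). By the methods' *t*-test *Mmp14* did not pass after adjustment (adjusted p = 0.135). Under treat neither *Mmp14* nor *Mmp9* (adjusted p = 0.216) was called.

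*Adam8* was highest in CD103+CD11b- DCs, with 9.78, 9.49 and 9.74. CD103+CD11b+ DCs had 8.20, 8.14 and 8.11, CD103-CD11b- DCs 8.25, 8.27 and 8.13, and CD103-CD11b+ DCs 8.10, 7.82 and 7.59. The gene thus fell into 3 steps, with CD103+CD11b- DCs on top, the other DC subsets under them and macrophages at the bottom. Against the top subset, CD103+CD11b+ cells differed by -1.52 ± 0.13 (limma, adjusted p = 9.8e-06). CD103-CD11b+ cells differed by -1.83 ± 0.13 (limma, adjusted p = 2.2e-06).

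*Adam19*, a sheddase of neuregulins that is also found in DCs derived from monocytes, was highest in CD103+CD11b- DCs with 9.88, 9.78 and 9.72. It was lowest in CD103-CD11b+ DCs with 8.87, 8.57 and 8.57, a difference of -1.12 ± 0.10 (limma, adjusted p = 2.3e-05). Macrophages at 9.25 ± 0.19 lay beside CD103+CD11b+ DCs at 9.22 ± 0.12, with overlapping arrays. *Mmp25*, a membrane-type MMP held by a lipid anchor, was highest in CD103+CD11b- DCs with 6.90, 6.52 and 6.76, against 5.69, 5.63 and 5.77 in CD103+CD11b+ DCs. The difference was -1.03 ± 0.10 (limma, adjusted p = 3.7e-05), close to the limit of 1, and it was -1.0 without CD103+CD11b+ DC replicate 2 and -0.95 without CD103+CD11b- DC replicate 1, where the call was lost.

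Between the CD11b+ subsets, CD103+CD11b+ against CD103-CD11b+ DCs, none of the 78 members was called with limma, beside 0.537% of all genes. At an unadjusted p under 0.05, 14 members (17.9%) passed in limma, beside 12.5% of all genes, and 7 (9.0%) by the methods' *t*-test, beside 9.43% of all genes, of which no member remained after adjustment. *Mmp14* was at -1.02 ± 0.18 (limma, adjusted p = 0.0126), and *Mmp9* at -0.82 ± 0.12 (limma, adjusted p = 0.00458). For both genes the arrays of these subsets did not overlap, with the higher values in CD103-CD11b+ DCs. *Mmp12* was at 0.68 ± 0.19 (limma, adjusted p = 0.11), with the higher values in CD103+CD11b+ DCs. Macrophage markers averaged 6.23 to 6.55 in CD103+CD11b+ DCs, against 7.36 to 7.74 in CD103-CD11b+ DCs, and 7 of 14 were called lower. Their part in these values was not tested.

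**Figure D4:**
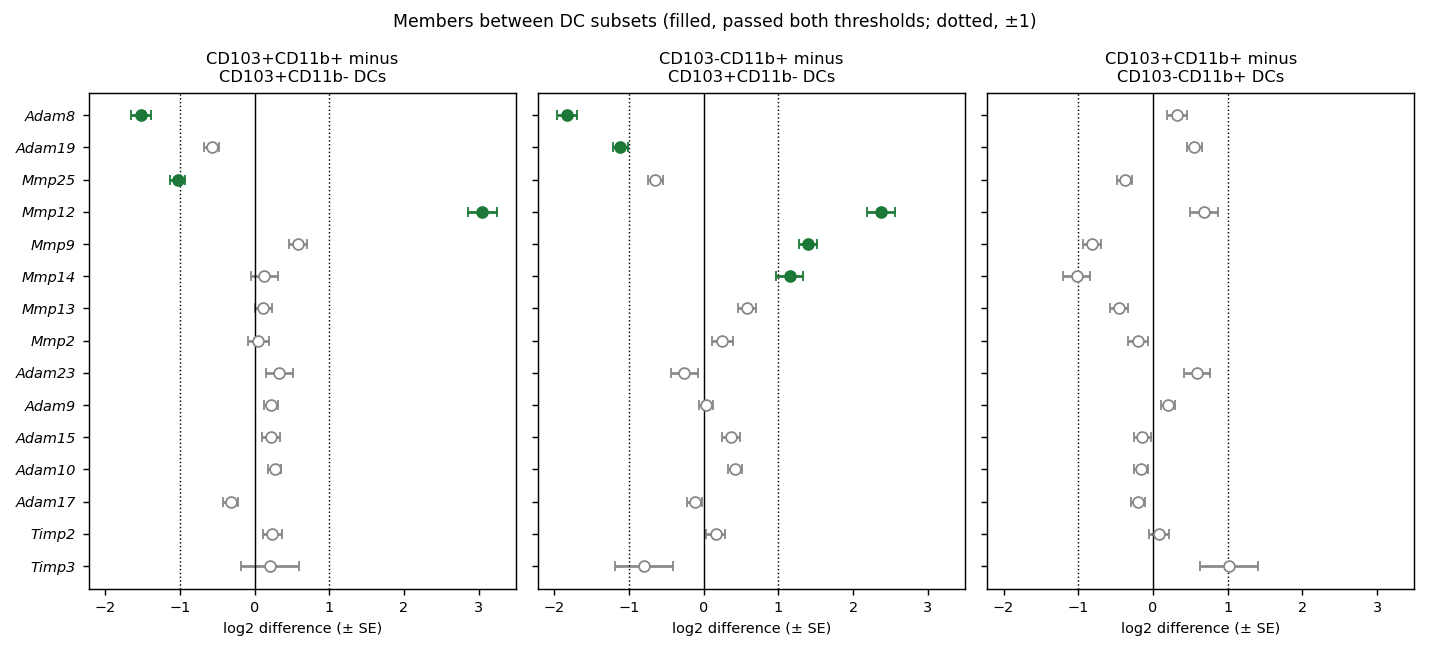
Log2 differences with SE (horizontal axis) between pairs of DC subsets for 15 members, with filled points for those that passed both limits and dotted lines at -1 and 1. *Mmp12* stands at 3.05 and 2.37 in the comparisons with CD103+CD11b- DCs, *Adam8* at -1.52 and -1.83, and no point is filled in the comparison of the CD11b+ subsets.

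CD103-CD11b- DCs, set against the mean of the other 3 DC subsets, had no called member with limma, and 1.02% of all genes were called. At an unadjusted p under 0.05, 11 members (14.1%) passed, beside 15.1% of all genes. *Adam23* was highest in this subset with 8.24, 7.92 and 8.14, above every array of every other population, and its difference was 0.80 ± 0.14 (limma, adjusted p = 0.00202). *Mmp25* was at -0.76 ± 0.11 (limma, adjusted p = 5.3e-04). *Mmp23*, an MMP of unusual domain structure, was at 0.60 ± 0.13 (limma, adjusted p = 0.0103), and its 5.90, 6.5 and 6.45 in these DCs overlapped CD103-CD11b+ DCs. Macrophages were lowest for *Mmp23*, with 5.23, 5.26 and 5.16, and the range that called it dropped to 0.96 and 0.98 without CD103-CD11b- DC replicate 2 and replicate 3. CD103-CD11b- DCs also had the highest T and B lymphocyte and plasma cell markers, at 7.30 to 7.76 against 6.08 to 7.08 in the other DC subsets, and the part of these in the results was not tested.

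Whether the CD11b difference depended on CD103 was tested by the interaction of both markers over the 4 DC subsets. In it 4 of 78 members (5.1%) were called, beside 1.97% of all genes (1.08% positive and 0.893% negative): *Mmp12* at 2.47 ± 0.46, *Mmp25* at -1.71 ± 0.19, *Adam23* at 1.42 ± 0.24 and *Adam8* at -1.14 ± 0.21. *Mmp12* was 3.05 higher in CD11b+ than in CD11b- cells among CD103+ DCs and 0.58 higher among CD103- DCs. For *Adam8* the same differences were -1.52 and -0.38. *Mmp25* was at -1.03 among CD103+ and 0.68 among CD103- DCs, and *Adam23* at 0.33 and -1.09. Among CD103+ DCs the 0.33 ± 0.18 of *Adam23* did not pass (limma, adjusted p = 0.313). The differences among CD103- DCs are differences of means and were not tested on their own. The CD103-CD11b- DCs carried more cDC1 markers than the CD11b+ subsets, at 8.14 to 8.55 against 6.67 to 7.02, and fewer than CD103+CD11b- DCs at 9.84 to 10.1, and the part of these markers in the result was not tested. Of the 12 DC arrays left out in turn, *Mmp12* kept its call only without CD103+CD11b+ or CD103+CD11b- DC replicate 3 or without replicate 1 of either CD103- subset, and *Adam8* only without CD103+CD11b- DC replicate 2 or CD103-CD11b+ DC replicate 3. Without the other arrays the values were 2.24 to 2.52 and -1.16 to -1.0, and when each population lost its array with the highest pancreatic acinar markers, *Mmp25* was called and *Mmp12* at 2.14, *Adam23* at 1.29 and *Adam8* at -1.37 were not. Without CD103-CD11b- DC replicate 1, the array with the most macrophage markers of its subset, *Mmp12* was at 2.88 ± 0.37 (limma, adjusted p = 4.4e-04).

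TIMPs, the inhibitors, made up the smallest family. *Timp1*, an inducible inhibitor in many inflamed tissues, and *Timp4* had means that spanned 0.24 and 0.16, with no array over 3.97. *Timp2* differed as given above. *Timp3*, which binds to the matrix and inhibits ADAM17 as well as MMPs, was the TIMP gene that varied most between replicates. CD103+CD11b+ DCs had 5.05, 6.08 and 6.62 and CD103+CD11b- DCs 4.99, 5.76 and 6.36, while CD103-CD11b+ DCs had 4.61, 4.89 and 5.21. The difference between the CD11b+ subsets was 1.02 ± 0.39 (limma, adjusted p = 0.295), which missed the limit on the adjusted p only. *Timp3* rose from replicate 1 to replicate 3 in every DC subset, but not in macrophages. With a replicate block the difference was called, as given in the last section. Fibroblast and smooth muscle markers averaged 4.82, 5.40 and 5.56 in CD103+CD11b+ DCs, 5.06, 5.35 and 5.58 in the CD103+CD11b- subset, and 4.76, 5.08 and 5.04 in the CD103-CD11b+ subset. Their part in the *Timp3* values was not tested.

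*Mmp7*, or matrilysin, is a product of Paneth cells, where it processes defensins. It was over 6 on all arrays of the DC subsets, and in macrophages it read 5.70, 7.67 and 5.61, so that 1 macrophage array stood above its replicates and above all DC arrays. Paneth cell markers moved with it and averaged 5.58, 8.40 and 5.76 on these arrays, and the epithelial markers 6.44, 7.72 and 6.35. Among CD103+CD11b+ DCs *Mmp7* was 6.67, 7.24 and 7.49 and the Paneth cell markers 7.49, 7.91 and 8.41. In the same DCs the epithelial markers were 7.22, 7.18 and 7.73. The F test did not call *Mmp7* (limma, adjusted p = 0.618), and the part of Paneth cell and other epithelial RNA in its signal was not tested.

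No ADAMTS gene was called in any comparison with limma. At an unadjusted p under 0.05 between 0 and 5 of the 18 passed in each, beside 12.5% to 35.4% of all genes. The 0 was for macrophages against CD103-CD11b+ DCs, beside 27.3% of all genes. The 5 were for CD103-CD11b+ against CD103+CD11b- DCs, beside 25.6%. The methods' *t*-test likewise called none after adjustment, and 0 to 4 without it, beside 9.43% to 21.5% of all genes. *Adamts17* was the one ADAMTS gene over 6, with a range of 0.21, and *Adamts10*, lowest at 5.52 ± 0.09 in CD103+CD11b- DCs with CD103+CD11b+ DCs highest at 6.15 ± 0.28, had the widest range at 0.63. All 7 proteoglycanases, among them *Adamts1*, *Adamts4* and *Adamts5*, spanned at most 0.30.

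Many MMP genes lie side by side, and neighbours did not share a pattern. In the RefSeq annotation of assembly GRCm38.p6, 10 of the 22 MMP genes follow each other on chromosome 9 in the order *Mmp13*, *Mmp12*, *Mmp1b*, *Mmp3*, *Mmp1a*, *Mmp10*, *Mmp8*, *Mmp27*, *Mmp20* and *Mmp7*. Of these, 2 were called by the F test and 3 exceeded 6. *Mmp13* and *Mmp12* are direct neighbours, and the first was highest in macrophages while the second was highest in CD103+CD11b+ DCs. *Mmp3* and *Mmp10*, the stromelysins of the row, spanned 0.12 and 0.28. *Adam9* lies at the end of a run of 5 ADAM genes on chromosome 8 (*Adam18*, *Adam3*, *Adam5*, *Adam32* and *Adam9*), and was the only one of them to exceed 6.

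**Figure D5:**
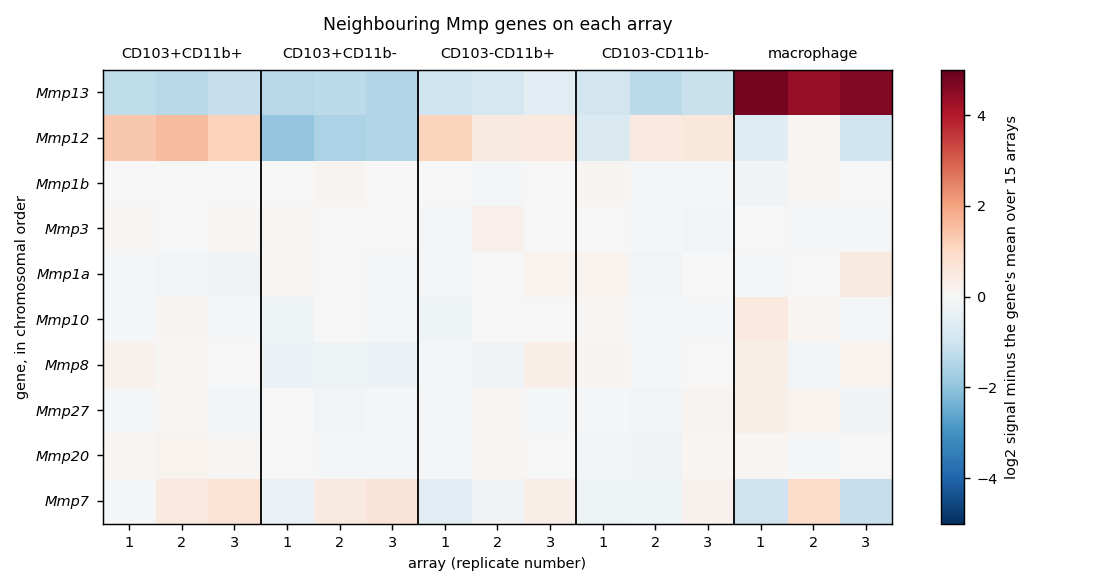
Signal of the 10 neighbouring Mmp genes (rows, in chromosomal order) on each of the 15 arrays (columns, by population and replicate number), as the log2 difference from the mean of the gene over all arrays. *Mmp13* is high in the macrophage columns only and *Mmp12* is lowest in CD103+CD11b- DCs, *Mmp7* varies between replicates, and the other 7 rows are nearly flat.

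The sequences before the start sites of *Mmp13* and *Mmp12* are shown because these neighbours differed in pattern. They are the 250 bases up to the start site that RefSeq lists, from assembly GRCm38.p6 and on the plus strand, and 1 probeset stands for both listed *Mmp12* starts. Capitals mark the letters TGANTCA, an AP-1 motif that reads alike on both strands, and GAGGAAGT or its reverse complement ACTTCCTC, a PU.1 type motif. Both motifs were chosen after the values were seen.
Mmp13, chr9:7272264-7272513: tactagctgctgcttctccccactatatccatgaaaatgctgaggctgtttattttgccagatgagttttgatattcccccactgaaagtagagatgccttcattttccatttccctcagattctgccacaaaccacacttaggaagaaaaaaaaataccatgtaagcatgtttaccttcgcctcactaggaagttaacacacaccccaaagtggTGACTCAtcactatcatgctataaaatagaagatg
Mmp12, first start, chr9:7344147-7344396: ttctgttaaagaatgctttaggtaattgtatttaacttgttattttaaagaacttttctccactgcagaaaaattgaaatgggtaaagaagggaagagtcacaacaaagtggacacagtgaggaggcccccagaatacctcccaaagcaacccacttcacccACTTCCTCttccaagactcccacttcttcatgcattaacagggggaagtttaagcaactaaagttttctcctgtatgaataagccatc
Mmp12, second start, chr9:7347124-7347373: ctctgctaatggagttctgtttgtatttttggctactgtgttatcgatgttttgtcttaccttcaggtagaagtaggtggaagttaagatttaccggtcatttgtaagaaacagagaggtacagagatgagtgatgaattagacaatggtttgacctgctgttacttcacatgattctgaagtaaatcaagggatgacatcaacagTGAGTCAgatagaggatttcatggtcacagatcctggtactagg

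The AP-1 letters began 35 bases before the *Mmp13* start and 44 bases before the second *Mmp12* start, and the PU.1 type letters 88 bases before the first *Mmp12* start. AP-1 letters stood in 6.75% of all 32851 listed windows of this length. Among members they stood in 12 of 53 windows, which belong to 12 of the 48 members that had a window. In the row of 10 MMP genes 8 had them, flat and dim genes such as *Mmp3* and *Mmp10* included. The PU.1 type letters stood in 2.44% of all windows and in 4 of the 53 member windows, those of *Adam29*, *Mmp7*, *Mmp8* and *Mmp12*. Of the 11 called members with a window, *Adam19*, *Mmp12* and *Mmp13* had AP-1 letters and *Mmp12* had PU.1 type letters.

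Genes that act with these enzymes were read from 4 lists, which were chosen with earlier results of these data known. Their counts are therefore descriptions and not tests of the lists. Of the membrane proteins known to be shed by ADAM10 or ADAM17, 24 of 26 listed were measured, and 12 were higher and none lower in macrophages than in the DC mean, with a median difference of 0.98 against 0 over all genes, of which 3.38% were called higher. The 12 include *Csf1r*, the receptor of the macrophage growth factor, at 4.46 ± 0.16, and *Axl* and *Mertk*, receptors for the clearance of dead cells, at 4.13 ± 0.14 and 3.54 ± 0.10. They also include the scavenger receptor *Cd163* at 2.76 ± 0.12. *Csf1r*, *Mertk* and *Cd163* are also in the list of macrophage markers. The marker list does not hold the other 9, which does not make them independent of cell type. Among DCs, *App*, *Csf1r* and *Tnfrsf1b* were higher in both CD11b+ subsets than in CD103+CD11b- DCs.

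A list of 27 genes for the maturation, traffic and inhibition of metalloproteinases also held *Adamdec1* and ADAMTS-like genes. Of the 27, 3 (11.1%) were higher in macrophages and none was lower, beside 3.38% and 2.19% of all genes. Only *Lrp1* among the 3 belongs to maturation, traffic or inhibition, and the others are ADAM-like or ADAMTS-like genes. The median difference of the list was 0.15. *Adamdec1*, an ADAM-like protease of gut macrophages whose name the rule leaves out, had 11.36, 10.17 and 11.09 in macrophages and 5.38 to 8.15 in DCs, a difference of 3.76 ± 0.37 (limma, adjusted p = 1.8e-06). *Lrp1*, an endocytic receptor that clears MMPs and TIMPs, differed by 2.23 ± 0.11, and *Adamtsl4*, an ADAMTS-like matrix protein without protease activity, by 1.14 ± 0.11. *Tspan33*, a tetraspanin that regulates the maturation of ADAM10, was highest in CD103+CD11b- DCs at 7.16 ± 0.24. CD103+CD11b+ cells differed from these by -1.34 ± 0.12. CD103-CD11b+ cells differed by -1.11 ± 0.12, and the gene was called in the interaction at -1.30 ± 0.18.

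Plasminogen activation, which yields plasmin and thereby active MMPs, was represented by 6 measured genes of 8. *Plaur*, the receptor for urokinase, had 9.41, 9.71 and 9.13 in macrophages. CD103-CD11b+ DCs followed with 8.56, 8.81 and 8.46, then CD103+CD11b+ DCs with 7.38, 7.60 and 7.34, and CD103+CD11b- DCs were lowest with 4.56, 5.08 and 5.30. None of these populations overlapped, whereas CD103-CD11b- DCs, at 6.22, 7.28 and 7.35, reached the CD103+CD11b+ values. *Plau*, urokinase itself, was at 9.12 ± 0.68 in macrophages, at 8.25 ± 0.29 and 7.88 ± 0.10 in the CD11b+ subsets with and without CD103, and at 5.58 ± 0.45 in CD103+CD11b- DCs. Both genes were higher in macrophages than in the DC mean (2.43 ± 0.21 and 2.19 ± 0.24) and in each CD11b+ subset than in CD103+CD11b- DCs (2.30 to 3.63). *Plaur* was also lower in CD103+CD11b+ than in CD103-CD11b+ DCs, at -1.17 ± 0.17 (limma, adjusted p = 0.00388). None of the 18 matrix substrates listed was called in any comparison with limma. In each, 1 to 3 of them passed at an unadjusted p under 0.05, beside 12.5% to 35.4% of all genes.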

How the data were processed

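RNA of 5 sorted populations was measured on 15 Affymetrix mouse whole-transcript arrays, 3 per population. The authors deposited log2 values made with Robust Multi-array Average (RMA), in which background correction and quantile normalization are already contained, and which make the arrays alike in distribution (median 4.74 to 4.86). The genome build was not given in the sources used here. Of 35556 probesets, 21789 had 1 gene symbol, 1621 had more than 1 and 12146 had no entry in the annotation, and 19938 genes had a probeset of their own. The number of arrays limits the precision. limma 3.58.1 (R 4.3.3) was run on all genes, on 15 arrays, or for pairs of DC subsets on 9 arrays, those of all DCs but the CD103-CD11b- ones. The limits were an adjusted p of 0.01 and a log2 difference of 1, taken from the study's figure legend for the arrays. Python 3.11.15 with pandas 2.3.3, and matplotlib 3.10.9 for plots, served for the rest.

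Genes are named if they passed the F test or a comparison, with *Timp1* to *Timp4*, *Adam10*, *Adam17* and up to 4 passing genes of each pathway list; other names were chosen after their values were seen. The members and lists were chosen with earlier results of these data known. The alternatives were the choice of probeset, cyclic loess, a limit on dim genes, a trend, array weights, an adjusted p of 0.05, treat, a replicate block, other arrays in the fit, the methods' *t*-test, and leaving out arrays. The scripts were tested on simulated data. RefSeq promoter windows were found for 48 members, and *Mmp2*, *Mmp9* and *Adam9* were among those without one.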

Additional observations from a re-analysis of the deposited data

Results flagged for a closer look

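For 4 members the difference between CD11b+ and CD11b- cells was not the same in CD103+ and CD103- DCs, by limma's test of the interaction. *Mmp12* differed between both contrasts by 2.47 ± 0.46 (adjusted p = 0.00468), *Mmp25* by -1.71 ± 0.19 (adjusted p = 8.3e-05), *Adam23* by 1.42 ± 0.24 (adjusted p = 0.00225) and *Adam8* by -1.14 ± 0.21 (adjusted p = 0.00486). Only *Mmp25* was called in every fit that left out 1 array or the pancreas-rich arrays. The *Mmp12* value rests on CD103-CD11b- DC arrays that were spread over 5.76, 6.96 and 7.03. The macrophage markers averaged 7.21, 6.15 and 6.31 on the same arrays, and their part in the value was not tested. Without the first of these arrays the value was 2.88 ± 0.37 (limma, adjusted p = 4.4e-04).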

How the results depend on the processing

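No value changed direction under any alternative. Of 932 recomputed values of 40 gene results, 881 kept their call and 51 lost it, in 17 gene results. Leaving out each array in turn gave 12 to 15 members called by the F test, 7 to 8 for macrophages against the DC mean, 6 to 8 for macrophages against CD103-CD11b+ DCs, and 2 to 3 and 4 to 5 for CD103+CD11b+ and CD103-CD11b+ DCs against CD103+CD11b- DCs. It gave 0 to 1 between the CD11b+ subsets, 0 for CD103-CD11b- DCs and 2 to 4 for the interaction. By the methods' *t*-test at an unadjusted p under 0.05, 19 members (24.4%) passed between macrophages and CD103-CD11b+ DCs, beside 18.8% of all genes. Against CD103+CD11b- DCs, 19 (24.4%) passed for CD103+CD11b+ and 17 (21.8%) for CD103-CD11b+ DCs, beside 21.5% and 19.5% of all genes. Between the CD11b+ subsets 7 (9.0%) passed, beside 9.43% of all genes. After Benjamini-Hochberg adjustment 5 remained for CD103+CD11b+ against CD103+CD11b- DCs. With treat, which tests against a difference of 1, the counts against CD103+CD11b- DCs were 1 and 2, and that of the interaction was 0. treat was not run for the F test. When each population lost its array with the highest pancreatic acinar markers, 1 member was called in the interaction. Between the CD11b+ subsets, *Mmp14* alone was called (1 member) at an adjusted p under 0.05, with cyclic loess, with only genes over 6 tested, with a trend, with array weights, and without CD103+CD11b- DC replicate 1 or CD103-CD11b+ DC replicate 2. With the replicate block 1 member was called there, *Timp3*, at 1.02 ± 0.16 (limma, adjusted p = 0.00546). The replicate numbers were not taken as pairs, because the labels do not say what arrays of equal number share. Deviations correlated over 0.1 in 18 of 30 same-numbered array pairs (mean 0.12, against -0.06 for other pairs). Only 2 arrays correlated best with their own number in every other population. The mean was thus higher for equal numbers, and whether these arrays share a source was not tested. The block left the other counts within 1.5 times. The cause of these changes was not tested. A dim signal limits the depth of these statements: 62 of 78 members did not exceed 6 on all arrays of any population, and a missing call there does not show that a gene did not differ.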
